A study of Mus musculus with 4 samples.

Results

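Il13, Il5, Il4 and Il9, the signature type 2 cytokine genes, were followed in group 2 innate lymphoid cells (ILC2) of the pancreatic islets of fasted and fed mice. The 4 genes were chosen by name, as 4 of 15835 gene rows in the table. The animals were C57BL/6j mice, and no other allele or agent is named for either group. The 2 groups were 4 Fasted libraries and 4 Fed libraries, each numbered 1, 3, 4 and 5. RNA was taken up in Trizol and made into CEL-seq2 libraries, an assay that counts transcripts near their 3' end and pools barcoded samples. The sources used here do not give the length of the fast, the age and sex of the mice, the number of animals behind each library or the way the ILC2 were isolated. The p-values therefore measure only how these libraries vary, and some of that variation may be technical.

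ILC2 are tissue-resident lymphocytes that carry no rearranged antigen receptor and answer to alarm signals from surrounding tissue, chiefly IL-33, by secreting type 2 cytokines. Their IL-5 sustains eosinophils, their IL-13 acts on epithelial cells, smooth muscle and macrophages, IL-4 drives the type 2 programme of T and B cells, and IL-9 acts on mast cells and on ILC2 themselves. In mouse ILC2, GATA3 is the transcription factor that defines the lineage and binds the locus holding Il4, Il13 and Il5.

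The libraries held 2041697 to 9366807 counts in the Fasted group and 1797504 to 25252366 in the Fed group. Acinar marker genes, which encode digestive enzymes of the exocrine pancreas, took 2.32% and 2.60% of the counts in Fasted libraries 1 and 3, 49.7% and 52.9% in Fasted libraries 4 and 5, and 29.8% to 52.9% in the Fed libraries. Levels are therefore given both as CPM, which are counts set to a common library size by the trimmed mean of M-values (TMM), and per 1000 counts summed over 10 ILC2 reference genes, among them Gata3, Il1rl1 (the IL-33 receptor) and Il2rg. Il2rg and Thy1, which many lymphocytes express, gave 40.3% and 29.2% of that sum in the Fasted and 41.4% and 28.9% in the Fed libraries, and Gata3 gave 5.72% in the Fasted and 6.59% in the Fed libraries. The sum ran from 17102 to 23590 counts in the Fasted libraries and from 10269 to 40593 in the Fed libraries. Gata3 averaged 222 ± 32.0 CPM in Fasted and 224 ± 81.8 CPM in Fed libraries, and Il1rl1 averaged 181 ± 62.9 CPM in Fasted and 163 ± 53.8 CPM in Fed libraries (SD, n = 4 each). Rora, another factor that defines ILC2, had 1 count in the Fasted and 5 counts in the Fed libraries. Several reference genes, such as Thy1, Icos and Il7r, are also expressed by T cells. In bulk libraries, fewer ILC2 and less cytokine RNA per ILC2 cannot be told apart on the CPM scale, and a level per reference count is relative to the RNA of the reference genes.

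Il13, Il5 and Il4 lie together on mouse chromosome 11, in the mm10 build with the GENCODE vM21 annotation. Il4 covers chr11:53602982-53618669 on the minus strand, Il13 covers chr11:53631324-53634702 on the minus strand, and Il5 covers chr11:53720794-53725106 on the plus strand, each with 4 exons. Between Il4 and Il13 there are 12.7 kb, and between Il13 and Il5 there are 86.1 kb, which hold Rad50, a DNA repair gene whose introns carry the locus control region of the cluster. Il9 stands apart at chr13:56479277-56482246 on the minus strand, with 5 exons. The annotated antisense gene Gm12214 overlaps Il5. The sources used here do not say whether the counting used strand, so reads of Il5 and Gm12214 could not be separated. The 250 bases before the start of the 3 clustered genes are printed from RefSeq (GRCm38.p6) because they are the proximal promoters of genes that share a locus and differ widely in level. Capitals mark GATA or, for a match on the other strand, TATC, the core motif of GATA factors.
Il13 chr11:53634703-53634952 (minus strand): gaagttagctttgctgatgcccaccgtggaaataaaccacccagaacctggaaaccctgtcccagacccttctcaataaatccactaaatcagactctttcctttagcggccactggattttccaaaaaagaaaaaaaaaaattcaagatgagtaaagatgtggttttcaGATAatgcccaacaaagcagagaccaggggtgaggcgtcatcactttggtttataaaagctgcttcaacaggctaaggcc
Il5 chr11:53720544-53720793 (plus strand): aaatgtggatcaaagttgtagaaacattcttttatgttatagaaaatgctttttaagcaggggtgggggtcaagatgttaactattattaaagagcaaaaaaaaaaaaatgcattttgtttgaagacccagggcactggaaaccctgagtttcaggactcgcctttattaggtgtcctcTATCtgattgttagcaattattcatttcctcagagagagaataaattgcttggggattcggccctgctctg
Il4 chr11:53618666-53618915 (minus strand): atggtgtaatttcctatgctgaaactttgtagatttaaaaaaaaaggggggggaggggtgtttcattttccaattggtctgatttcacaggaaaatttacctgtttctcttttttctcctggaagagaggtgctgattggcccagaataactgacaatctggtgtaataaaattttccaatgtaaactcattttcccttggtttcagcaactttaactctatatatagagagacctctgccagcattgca
The Il13 window held 1 match to GATA, 80 bases before the start, and it was also the only one of the 4 genes' windows with AGATAA. The Il5 window held 1 match, on the other strand and 71 bases before the start, the Il4 window held 0 and the Il9 window held 2. Counting both strands, 54.1% of 27025 RefSeq promoter windows of the same length held GATA and 10.3% held AGATAA, a motif that contains GATA. GGAAA, the core of the sites of NFAT factors, occurred 4 times before Il13, 2 times before Il5, 5 times before Il4 and 3 times before Il9, and was present in 55.6% of all windows. TGANTCA, the site of AP-1 factors, occurred once before Il9 and in 6.87% of all windows. These matches describe the letters of the windows, and binding was not measured.

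Il13 had the highest count of the 4 genes in all 8 libraries, with 69.0% to 91.6% of their summed counts. Il5 ranked above Il4 in 7 of 8 libraries and gave 5.58% to 28.6% of the sum. Il4 gave 0.830% to 8.37%, and Il9, detected in 2 of 8 libraries, gave at most 1.97%. Counting near the 3' end does not scale with transcript length, so these shares are compared without a length correction. Against 16 other secreted factors with enough counts for a test, the mean level of Il13 ranked 8 of 18 in Fasted and 6 of 18 in Fed libraries, and that of Il5 ranked 15 of 18 in Fasted and 14 of 18 in Fed libraries. Il13 lay below the growth factor Areg, which averaged 107 CPM in Fasted and 118.5 CPM in Fed libraries. The chemokine Ccl5 averaged 49.9 CPM in Fasted and 46.6 CPM in Fed libraries, above Il13 in the Fasted and below it in the Fed group. After the filter on low counts, 2 of the 4 genes, Il13 and Il5, entered the test across 7700 genes.

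**Figure D1:**
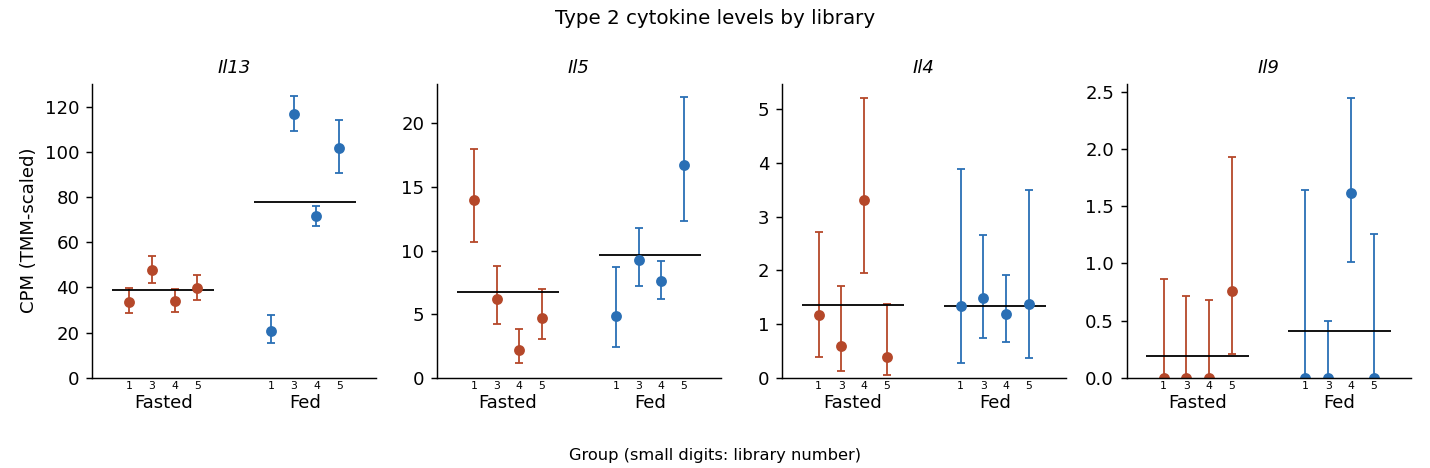
Level of each cytokine gene in TMM-scaled CPM (y axis, own scale per panel) in the 4 Fasted and 4 Fed libraries, with points for single libraries, bars for the 95% Poisson interval of the count and lines for group means. Il13 lies between 33.8 and 47.6 CPM in the Fasted libraries and between 20.9 and 117 CPM in the Fed libraries.

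IL-13, which shares a receptor chain with IL-4, was the most abundant of the 4 transcripts in both groups. The Fasted libraries 1, 3, 4 and 5 held 145, 245, 185 and 210 Il13 counts, and the Fed libraries 1, 3, 4 and 5 held 47, 868, 975 and 299. Scaled, these were 33.8, 47.6, 33.9 and 39.6 CPM in Fasted libraries, against 20.9, 117, 71.7 and 102 CPM in Fed libraries. The Fasted libraries lay close together. Fed libraries 3, 4 and 5 were all above every Fasted library, whereas Fed library 1 was below all of them, so the groups overlapped. Il13 averaged 38.7 ± 6.50 CPM in Fasted and 77.9 ± 42.4 CPM in Fed libraries (SD, n = 4 each), a log2 fold change of -1.01 ± 0.42 (SE). In edgeR's quasi-likelihood test the unadjusted p was 0.036 and the Benjamini-Hochberg adjusted p was 1.00, so Il13 did not pass. No gene passed at an adjusted p of 0.05, which is 0% of the 7700 tested, and 4.39% (338 genes) had an unadjusted p under 0.05. In counts simulated from these libraries, edgeR recovered 2% of 2-fold changes, so a difference of that size would seldom pass. With the library number as a block, 536 genes had an unadjusted p under 0.05 and 0 genes passed after adjustment. DESeq2 gave an adjusted p to 2 of the 4 cytokine genes, Il13 (0.86) and Il5 (1.00), and called neither, beside 16 of 6350 genes with an adjusted p (0.252%).

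Relative to the ILC2 reference genes, Il13 again had a single low Fed library. Per 1000 reference counts it was 8.48, 10.4, 10.1 and 11.4 in Fasted libraries 1, 3, 4 and 5, and 4.58, 25.9, 24.0 and 27.6 in Fed libraries 1, 3, 4 and 5. Fed libraries 3, 4 and 5 were within 24.0 to 27.6, more than any Fasted library, and Fed library 1 was again the lowest of the 8. The means were 10.1 ± 1.20 in Fasted and 20.5 ± 10.7 in Fed libraries (SD, n = 4 each). The log2 difference was -0.74, with a two-sided exact permutation p of 0.20 over 70 assignments, adjusted to 0.60 over the 4 cytokine genes, where the smallest possible p is 0.0286. Set against single ILC2 genes, Il13 was 13.4 to 22.2 per 100 Gata3 counts in Fasted libraries, against 11.8, 33.9, 34.5 and 60.4 in Fed libraries 1, 3, 4 and 5. Per 100 Il1rl1 counts it was 13.4 to 29.7 in Fasted libraries, against 14.8, 54.0, 36.5 and 104 in Fed libraries 1, 3, 4 and 5. On both single-gene scales Fed library 1 was within or below the Fasted range and the other Fed libraries were above it.

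Fed library 1 had the fewest counts of the 8 and the fewest reference counts (10269). Without it, Il13 averaged 38.7 ± 6.50 CPM in Fasted libraries (SD, n = 4) and 96.9 ± 23.0 CPM in Fed libraries (SD, n = 3), and the groups did not overlap. The log2 fold change was then -1.32 ± 0.26, with an unadjusted p of 0.000538 and an adjusted p of 0.71 in edgeR's test. In that fit 362 of 8405 genes had an unadjusted p under 0.05. On the reference scale without that library the log2 means differed by -1.36 (p = 0.0286 by exact permutation, the smallest that 35 assignments allow, and 0.11 after adjustment). Each library was left out in turn, and Fed library 1 is given here for its low Il13. Without it the groups separate, so that choice sets the permutation p at its minimum. These p-values are therefore not a test of Il13. The same library was low in the library-number pairs. Il13 per reference count was higher in Fasted than in Fed library 1, by a log2 difference of 0.88, and lower in Fasted than in Fed libraries 3, 4 and 5, by -1.31, -1.25 and -1.28. T cells can also make these cytokines. Their marker genes, 8 of 12 listed having a row, summed to 20.4, 15.2, 22.1 and 23.0 per 1000 reference counts in Fasted libraries 1, 3, 4 and 5, against 9.74, 9.06, 13.6 and 15.5 in Fed libraries 1, 3, 4 and 5. Most of these counts came from Cd3g, a subunit of the T cell receptor complex (965 in the Fasted and 855 in the Fed libraries), Lef1 (419 in the Fasted and 210 in the Fed libraries) and Cd3e (118 in the Fasted and 32 in the Fed libraries). Of the other 5, Cd28 had 23 counts in the Fasted and 0 in the Fed libraries, and Cd3d had 11 in the Fasted and 9 in the Fed libraries. Cd8a had 0 in the Fasted and 11 in the Fed libraries, Cd8b1 had 2 and 4, and Cd5 had 0 and 3. The listed genes without a row were Cd4, Trac, Trbc1 and Trbc2, so the chains of the T cell receptor itself could not be followed. The part of T cells in the cytokine counts was not tested.

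**Figure D2:**
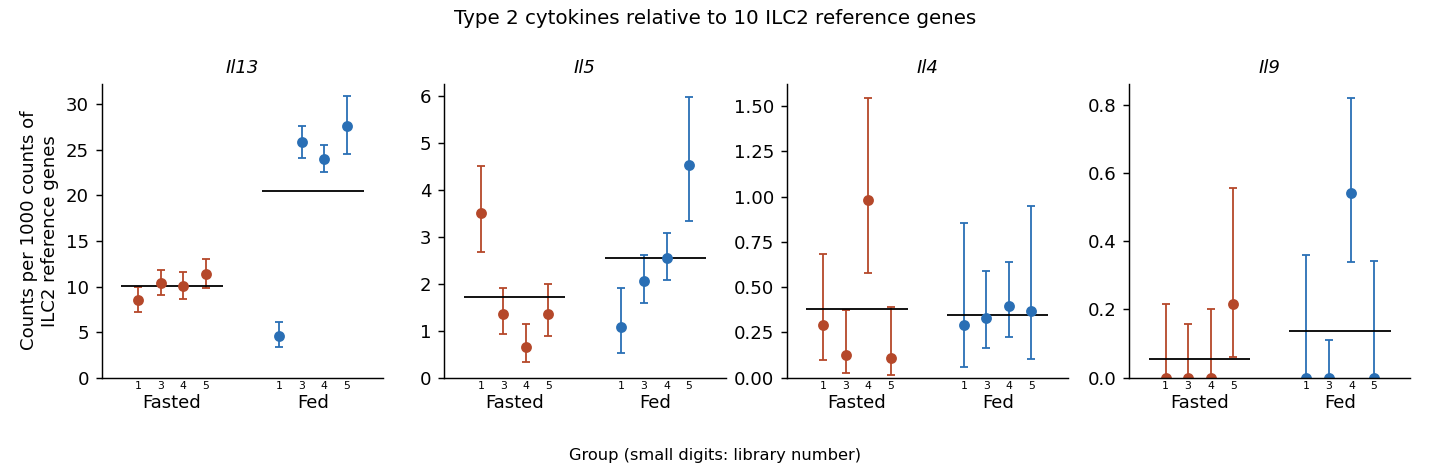
Counts of each cytokine gene per 1000 counts of the 10 ILC2 reference genes (y axis, own scale per panel) in the 4 Fasted and 4 Fed libraries, with points for single libraries, 95% intervals from counting error and lines for group means. For Il13 the Fed library numbered 1 sits at 4.58, and the other Fed libraries sit above 11.4, the highest Fasted value.

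IL-5, the growth and survival factor of eosinophils, was the next most abundant of the 4 transcripts. The Fasted libraries 1, 3, 4 and 5 held 60, 32, 12 and 25 Il5 counts, and the Fed libraries 1, 3, 4 and 5 held 11, 69, 103 and 49. These were 14.0, 6.22, 2.20 and 4.72 CPM in Fasted libraries, against 4.88, 9.29, 7.58 and 16.7 CPM in Fed libraries. The groups overlapped, with Fasted library 1 second only to Fed library 5. Il5 averaged 6.78 ± 5.07 CPM in Fasted and 9.62 ± 5.06 CPM in Fed libraries (SD, n = 4 each). The log2 fold change of -0.51 ± 0.58 (SE) was smaller than its error (edgeR, unadjusted p = 0.39, adjusted p = 1.00).

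Per 1000 reference counts, Il5 was 3.51, 1.36, 0.652 and 1.35 in Fasted libraries, against 1.07, 2.06, 2.54 and 4.52 in Fed libraries, each in the order 1, 3, 4 and 5. Fasted library 1 was the highest of its group and Fed library 1 the lowest of its group. The means were 1.72 ± 1.24 in Fasted and 2.55 ± 1.45 in Fed libraries (SD, n = 4 each), and on the log2 scale they differed by -0.64 (p = 0.34 by exact permutation, 0.60 after adjustment). As for Il13, the pair numbered 1 was higher in the Fasted library, by a log2 difference of 1.66, and the pairs numbered 3, 4 and 5 were lower in the Fasted library, by -0.59, -1.91 and -1.73.

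The size of the Il5 difference depended on which library was left out. Without Fasted library 1 the log2 fold change was -1.13, and without Fasted library 3 it was -0.48. Without Fasted library 4 it was -0.22, and without Fed library 5 it was -0.12. Myeloid marker genes, all 8 listed having counts, summed to 13.3 per 1000 reference counts in Fasted library 1. They summed to 1.31 to 1.63 in the other Fasted libraries and to 0.685 to 2.34 in the Fed libraries. Over the Fasted and the Fed libraries, C1qb had 196 and 23 counts, Csf1r 50 and 0, and C1qa 30 and 21. Adgre1 had 14 and 18, Itgam 12 and 1, Cd14 5 and 23, Cd68 5 and 0, and Lyz2 2 and 0. The part of myeloid cells in the Il5 values was not tested. With the acinar share as a covariate the log2 fold change was -1.32 ± 0.64, and without Fasted libraries 1 and 3 it was -1.48 ± 0.67 (edgeR, adjusted p = 1.00 in both). With library totals alone as the scale it was 0.42 ± 0.79. That scale moved the median of all genes to 0.50, against -0.0016 with the TMM scale, and relative to that median Il5 was at -0.09 and Il13 at -0.93. For Il13 the value was -1.03 ± 0.51 with the covariate and -1.09 ± 0.57 without Fasted libraries 1 and 3.

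**Figure D3:**
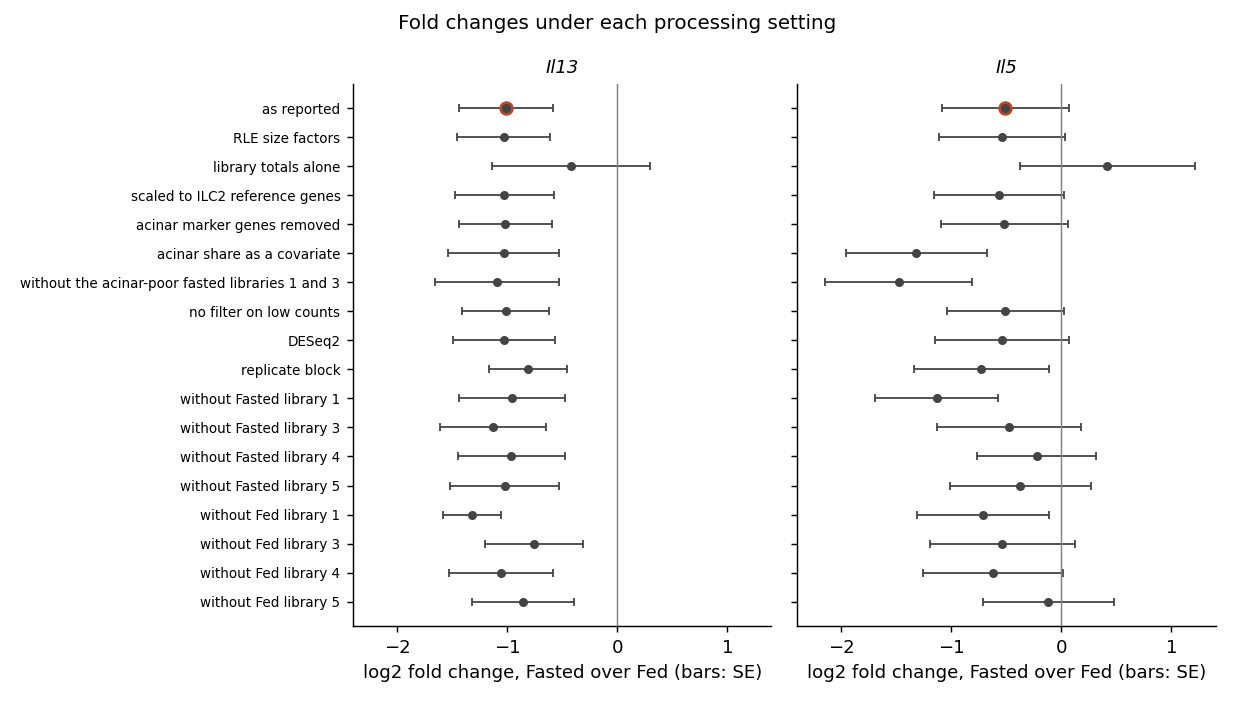
Log2 fold change, Fasted over Fed, of Il13 and Il5 (x axis, bars: SE) under the fit given in the text and under each alternative (y axis). The Il13 values shown stay below 0, and Il5 lies on the other side of 0, at 0.42, with library totals alone as the scale.

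Il13 and Il5 are usually secreted together by activated ILC2, and their ratio needs no outside scale. Fasted libraries 1, 3, 4 and 5 held 2.42, 7.66, 15.4 and 8.40 Il13 counts per Il5 count, against 4.27, 12.6, 9.47 and 6.10 in Fed libraries 1, 3, 4 and 5. The lowest and the highest ratio both came from Fasted libraries, and the groups overlapped across the whole Fed range. The mean ratio was 8.47 ± 5.34 in Fasted and 8.11 ± 3.68 in Fed libraries (SD, n = 4 each), and the log2 ratios differed by -0.10 (p = 0.89 by exact permutation). In Fasted library 1 the 95% interval of the ratio was 1.78 to 3.32, below the intervals of the other Fasted libraries. Across the 8 libraries, the Pearson correlation of Il13 with Il5 in log2 CPM was 0.55, given as a description over points that share their depth and acinar share. It was 0.00 with Il4, 0.37 with Gata3 and 0.04 with Il1rl1.

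**Figure D4:**
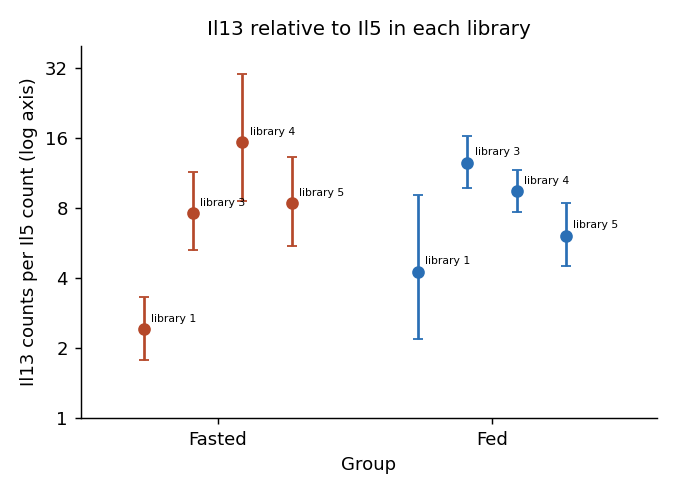
Il13 counts per Il5 count (y axis, log scale) in the 4 Fasted and 4 Fed libraries, with points for single libraries, labelled by number, and bars for 95% Clopper-Pearson intervals from counting error. The Fasted libraries run from 2.42 to 15.4 and the Fed libraries from 4.27 to 12.6.

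IL-4, the cytokine that instructs type 2 helper T cells and the switch to IgE, was sparsely counted. Fasted libraries 1, 3, 4 and 5 held 5, 3, 18 and 2 Il4 counts, and Fed libraries 1, 3, 4 and 5 held 3, 11, 16 and 4. These were 1.16, 0.583, 3.30 and 0.377 CPM in Fasted libraries, against 1.33, 1.48, 1.18 and 1.36 CPM in Fed libraries. The Fed libraries were nearly equal, and they lay between Fasted library 4 and the other Fasted libraries. Il4 averaged 1.36 ± 1.34 CPM in Fasted and 1.34 ± 0.126 CPM in Fed libraries (SD, n = 4 each). It did not pass the filter on low counts, and without that filter the log2 fold change was 0.02 ± 1.12 (edgeR, adjusted p = 1.00).

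Per 1000 reference counts, Il4 was 0.292, 0.127, 0.979 and 0.108 in Fasted libraries, against 0.292, 0.328, 0.394 and 0.369 in Fed libraries, and the log2 means differed by -0.40 (p = 0.51 by exact permutation, 0.60 after adjustment). Fasted library 4 was the only Fasted library above every Fed library. Without it the log2 means differed by -1.01 (p = 0.0286 by exact permutation, the smallest that 35 assignments allow, and 0.11 after adjustment), and the unfiltered log2 fold change was -0.91. Fasted library 4 was singled out on its Il4 values, so the p is not a test of Il4. Its minimum also rests on the 0.5 added to each count. Before that addition Fasted library 1 (0.29236) lay above Fed library 1 (0.29214). Mast cells and basophils also make Il4. Their marker genes summed to 4, 41, 46 and 7 counts in Fasted libraries, against 2, 39, 85 and 10 in Fed libraries, or 0.234 to 2.50 per 1000 reference counts in Fasted and 0.195 to 2.09 in Fed libraries. The libraries with the most of these markers held 2.50 with 0.979 of Il4 (Fasted 4), 2.09 with 0.394 (Fed 4) and 1.74 with 0.127 (Fasted 3). Of 12 listed mast cell and basophil genes, 5 had counts. Over the Fasted and the Fed libraries, Cpa3 had 54 and 67 counts, Hdc 40 and 21, and Fcer1a 4 and 26. Gata2 had 0 and 14, and Cd200r3 had 0 and 8. The part of mast cells and basophils in the Il4 counts was not tested.

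IL-9, which in mice is made by ILC2 in short bursts after activation, had 4 counts in Fasted library 5 and 22 counts in Fed library 4, and 0 in each of the other 6 libraries. These were 0.755 CPM in Fasted library 5 and 1.62 CPM in Fed library 4. A count of 0 allowed levels of up to 0.383 to 1.47 CPM of the library total in the Fasted libraries without Il9, and up to 0.512 to 1.67 in the Fed libraries without it, for 3 counts of each library. In the same unit the detected levels were 0.427 in Fasted library 5 and 0.871 in Fed library 4. Lower levels were not detectable at this depth. A fold change of Il9 would rest on 1 library in each group, so none is drawn from these counts. Intervals and limits of this kind cover counting error only, and they take each count as a separate molecule. If the counts are reads, the Il9 counts may stand for fewer molecules, and the intervals and limits are too narrow.

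None of the 4 cytokine genes had Fasted and Fed libraries that did not overlap in CPM. Among all genes tested, 3.52% did not overlap, 1.31% with the Fasted libraries lower and 2.21% with the Fasted libraries higher. Of the genes around Il13, Il5 and Il4 on chromosome 11, 11 of 19 with a row were tested, and 2 had a positive and 9 a negative log2 fold change, with a median of -0.51. Without Il13 and Il5 the other 9 had a median of -0.49, beside -0.0016 over all genes tested, and none passed the test. Csf2, which encodes the myeloid growth factor GM-CSF, averaged 29.8 ± 6.88 CPM in Fasted and 49.0 ± 7.09 CPM in Fed libraries (log2 fold change -0.72 ± 0.25), and its groups did not overlap. Rad50, between Il13 and Il5, averaged 1.58 ± 0.58 CPM in Fasted and 7.18 ± 6.79 CPM in Fed libraries (-2.11 ± 0.86, or -1.44 with the library number as a block). P4ha2, a collagen hydroxylase subunit, had a log2 fold change of -1.51 ± 0.81. These chromosome 11 genes and the cytokine genes share their libraries, so their signs are not independent.

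**Figure D5:**
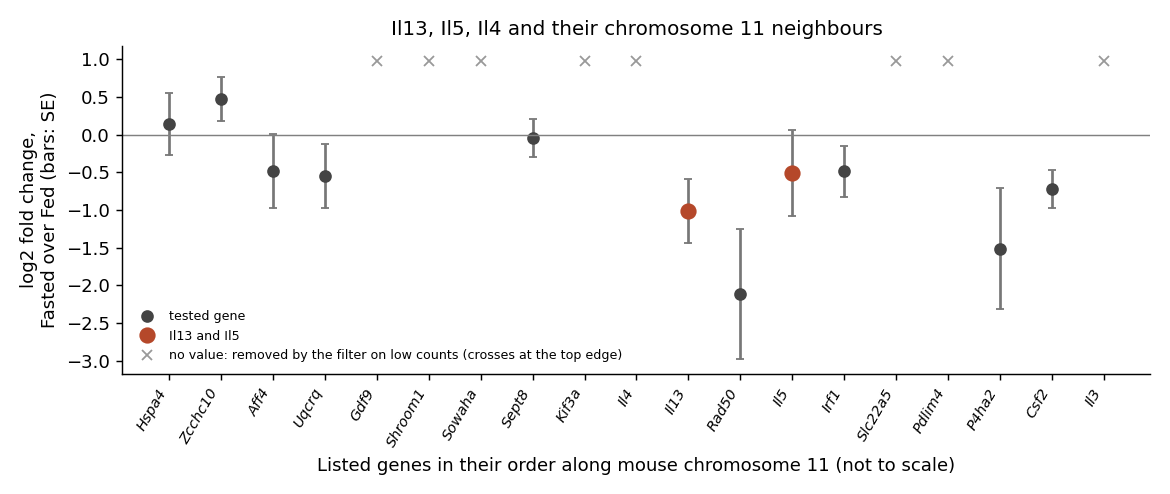
Log2 fold change, Fasted over Fed (y axis, bars: SE), of the listed chromosome 11 genes with a row, in their order along the chromosome (x axis, not to scale). Il13 is at -1.01 and Il5 at -0.51, and crosses at the top edge mark genes, Il4 among them, that were removed by the filter on low counts.

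Upstream of the cytokine genes, 15 of 21 listed activating receptors were tested, with 11 positive and 4 negative log2 fold changes and a median of 0.33, and 0 passed. The 3 with the smallest p were Tnfrsf18, which encodes the costimulatory receptor GITR (0.63 ± 0.30), Tnfrsf25, the receptor of TL1A (0.57 ± 0.30), and Vipr2, a receptor of vasoactive intestinal peptide (-1.34 ± 0.73). Without Fasted libraries 1 and 3, Tnfrsf18 was at 0.17, Tnfrsf25 at 0.28 and Vipr2 at -0.78, and without Fed library 5 Vipr2 was at -0.72. Of 31 transcription factors listed as candidates for these loci, 25 were tested, with 14 positive and 11 negative values, a median of 0.07 and 0 past the test. Whether the listed factors act on these loci was not measured. Ikzf3, the lymphoid factor Aiolos, averaged 31.8 ± 18.6 CPM in Fasted and 12.6 ± 2.32 CPM in Fed libraries (1.34 ± 0.40). Fosl2, an AP-1 subunit, averaged 335 ± 83.0 CPM in Fasted and 189 ± 53.6 CPM in Fed libraries (0.82 ± 0.27). Neither overlapped between groups, beside 2.21% of all genes tested that did not overlap with the Fasted libraries higher. Both were named for their small p, which favours such genes. Without Fasted libraries 1 and 3 the log2 fold changes were 0.57 for Ikzf3 and 0.48 for Fosl2. Stat5b, which carries signals of IL-2 and IL-7, was at 0.78 ± 0.38.

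Genes that restrain cytokine signalling or cytokine messenger RNA gave 28 tested of 30, with 17 positive and 11 negative log2 fold changes, a median of 0.21 and 0 past edgeR's test. DESeq2 called 1 of them, Tsc22d3, higher in Fasted libraries (adjusted p = 0.035), and none of the genes of the other lists. In simulated counts 17 of 84 DESeq2 calls were false. Tsc22d3, which encodes the glucocorticoid-induced protein GILZ, averaged 58.7 ± 13.5 CPM in Fasted and 22.7 ± 7.76 CPM in Fed libraries (1.38 ± 0.30, edgeR adjusted p = 0.50). Zfp36l2, a protein that binds AU-rich elements and destabilises messenger RNA, averaged 214 ± 48.3 CPM in Fasted and 103 ± 29.9 CPM in Fed libraries (1.06 ± 0.26, edgeR adjusted p = 0.54). Tnfaip3, the NF-kappaB inhibitor A20, averaged 204 ± 26.9 CPM in Fasted and 120 ± 30.3 CPM in Fed libraries (0.77 ± 0.23, edgeR adjusted p = 0.79). None of these 3 overlapped between groups, as did 2.21% of all genes tested, with the Fasted libraries higher. They were named for the smallest p of their list, which favours genes that do not overlap. Without Fasted libraries 1 and 3, Tsc22d3 was at 1.37, Zfp36l2 at 0.80 and Tnfaip3 at 0.75.

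Among the receptor chains through which the 4 cytokines signal, 3 of 8 were tested and 0 passed. Il9r, the IL-9 receptor chain that lets ILC2 answer their own IL-9, averaged 27.0 ± 7.68 CPM in Fasted and 20.6 ± 5.99 CPM in Fed libraries (0.40 ± 0.32). Il4ra, the chain shared by IL-4 and IL-13 receptors, averaged 37.4 ± 17.9 CPM in Fasted and 26.1 ± 12.8 CPM in Fed libraries (0.51 ± 0.43), and was at -0.23 without Fasted libraries 1 and 3. Il2rg, the common gamma chain, averaged 1563 ± 346 CPM in Fasted and 1661 ± 358 CPM in Fed libraries (-0.09 ± 0.24). Of 31 other secreted factors, 16 were tested, with 9 positive and 7 negative values, a median of 0.12 and 0 past the test. Without Fasted libraries 1 and 3 that median was -0.38. Besides Csf2, the smallest p were those of Calca, which encodes the neuropeptide CGRP and averaged 54.8 ± 24.7 CPM in Fasted and 23.6 ± 8.79 CPM in Fed libraries (1.20 ± 0.38), and Tnf, at -0.71 ± 0.35. Without Fasted libraries 1 and 3, Calca was at 0.52.

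The genes whose log2 CPM followed Il13 most closely over the 8 libraries were Noa1 (Pearson r = 0.95), Cops3 (0.94), Cryzl1 (0.93), Prps2 (0.92) and Zfp384 (0.92). For Il5 they were Usp5 (0.95), Snrpc (0.94), Gmeb2 (0.92), Pgd (0.92) and Josd2 (0.92). With 8 libraries and 7700 genes, values of this size are a description of the libraries only.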

How the data were processed

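The deposited table holds counts per gene from CEL-seq2 libraries, with no normalization in the values. The submitters' processing notes name STAR, edgeR and the mm10 build, without saying what each was used for. It is not known whether molecular identifiers were collapsed or which strand setting was used. Cpa1, an acinar gene, had 2387440 counts over the Fasted and 4615258 over the Fed libraries. Counts of this size may be reads rather than separate molecules. Each of 4 multiplexed sequencing files is labelled with both treatments, so the Fed (columns named control) and Fasted groups come from the column names, 4 columns each. The other 2 columns of per-sample values were not used. The 11 ERCC spike-in rows (20 counts in the 8 libraries) were left out of totals and tests.

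The 4 genes, the gene lists and the tests were chosen with earlier results of these data known. Genes were tested with edgeR 4.0.16 (R 4.3.3) by its quasi-likelihood test after filterByExpr and TMM scaling, with Benjamini-Hochberg adjustment over 7700 genes and a threshold of 0.05. SEs are the log2 fold change over the square root of F. Il4 and Il9, removed by the filter, were fitted without it. Alternatives were DESeq2 1.42.0, other scalings, no filter, the acinar share as a covariate or its marker genes removed, the library number as a block, and libraries left out. Ratios to the 10 reference genes were log2 of the count plus 0.5 over their sum, compared by two-sided exact permutation in SciPy 1.17.1. Intervals are 95% Poisson, or Clopper-Pearson for ratios of counts, and take each count as a separate molecule. If the counts are reads, these intervals are too narrow. The scripts were tested on counts simulated from the dispersions of these libraries, with 200 of 7700 genes changed. There edgeR recovered 2% of the 2-fold and 36% of the 4-fold changes, and 2 of its 40 calls were false. DESeq2 recovered 7% of the 2-fold and 60% of the 4-fold changes, and 17 of its 84 calls were false. A gene that did not pass may therefore still differ between the groups. Lists other than the cytokine genes name the 3 tested genes with the smallest p, and likeness names the 5 highest correlations. The main tests treat the libraries as unpaired, and pairing by library number was an alternative. Deviations of same-numbered libraries 1, 3, 4 and 5 correlated at 0.225, 0.139, 0.504 and 0.131. Of the pairs with unlike numbers, Fasted 5 with Fed 4 reached 0.215 and Fasted 3 with Fed 1 reached 0.197, and the others were lower. These 2 exceed the same-numbered values of Fasted 5 and Fasted 3, so the correlations do not settle whether the numbers pair libraries. An exact test flipping the sign of each pair's difference gave p = 0.25 for Il13 per reference count, where the smallest possible p is 0.125. The library numbers come from the column names, which do not say what a number marks. No libraries of a group agreed within sampling noise.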

Additional observations from a re-analysis of the deposited data

Results flagged for a closer look

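In 11 of 34 groups of 4 libraries checked, 1 library stood apart from the other 3 by a gap larger than Dixon's 95% critical value for 4 values, where chance flags about 1 in 20 groups. Of these, 8 are Il9 groups, in which 3 libraries at 0 make the gap as large as it can be, and among the 26 groups of the other measures there were 3. The scales share the same counts, so these are not separate findings. Fed library 1 was low for Il13, at 4.58 per 1000 reference counts. Fed library 5 was high for Il5, at 9.90 per 100 Gata3 counts and 17.1 per 100 Il1rl1 counts. For Il9 the only library of each group with a count stood apart. Fasted library 5 had 0.755 CPM, 0.217 per 1000 reference counts, 0.422 per 100 Gata3 counts and 0.515 per 100 Il1rl1 counts. Fed library 4 had 1.62 CPM, 0.542 per 1000 reference counts, 0.779 per 100 Gata3 counts and 0.824 per 100 Il1rl1 counts.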

How the results depend on the processing

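The number of genes called was 1 with library totals alone, 1 without the filter on low counts and 16 with DESeq2, against 0 in the fit reported, and it stayed at 0 to 0 when each library was left out in turn. Il13 was negative under the 9 other settings tried, from -1.09 to -0.42 on the log2 scale. Il5 was on the other side of 0 with library totals alone (0.42). The replicate block, which pairs libraries by number, gave -0.81 for Il13 and -0.73 for Il5 with no call changed, and put Il4 at -0.38, on the other side of 0 from 0.02. Without Fasted libraries 1 and 3 the log2 difference of the Il13 to Il5 ratio was 0.59, on the other side of 0. For these shifts the cause was not tested. With 1 library left out at a time, the log2 fold change ran from -1.32 to -0.76 for Il13, -1.13 to -0.12 for Il5 and -0.91 to 0.33 for Il4. Per reference count it ran from -1.36 to -0.50 for Il13, -1.07 to -0.27 for Il5 and -1.01 to -0.04 for Il4, and from -0.47 to 0.40 for the Il13 to Il5 ratio. Fitted values of Il9 rest on 1 library with counts in each group, and their sign and size are not read as a result about Il9. The values per reference count, and fits that leave out that library, also depend on the small count added to 0. Fitted values ran from -4.46 to 3.02 with 1 library left out. Per reference count they ran from -1.36 to 0.48 with 1 library left out, and the value was 0.31 without Fasted libraries 1 and 3. Il4, with 28 counts over the Fasted and 34 over the Fed libraries, and Il9, with 4 over the Fasted and 22 over the Fed libraries, are limited by depth.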

Other observations

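Eosinophil marker genes, 3 of 8 listed with a row, summed to at most 1.70 in the Fasted and 0.739 in the Fed libraries, per 1000 reference counts. Islet endocrine marker genes, 7 of 12 listed with a row, summed to 0.351 to 21.8 in the Fasted and 10.8 to 53.2 in the Fed libraries, in the same unit. Most of these counts came from Ttr, with 622 in the Fasted and 2818 in the Fed libraries. The insulin genes went the other way. Ins1 had 51 counts in the Fasted and 5 in the Fed libraries, and Ins2 had 80 in the Fasted and 21 in the Fed libraries. Gcg, Iapp, Chga and Chgb had at most 4 counts in either group.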
